A study of Mus musculus with 6 samples.

Results

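The sphingosine 1-phosphate genes described here are 9 of the 55471 genes in a comparison of the mouse hippocampus after stroke: the kinases Sphk1 and Sphk2, the receptors S1pr1, S1pr2, S1pr3 and S1pr5, the lyase Sgpl1, the exporter Spns2 and the related lipid transporter Mfsd2a. They were chosen by symbol, with the authors' results known, so the values of the comparison are given as a description and no test of the set was made. Hippocampal RNA came from 6 wild-type (WT) mouse samples taken 24 hours after cerebral ischemia and reperfusion, a stroke model that stops the brain's blood supply for a time and then restores it. Of these, 3 samples were from mice given Saline and 3 from mice given Visudyne, a preparation of the photosensitizer verteporfin with which the study ablated meningeal lymphatic vessels. Every sample, the Saline controls included, had undergone ischemia and reperfusion, and animals without stroke were not analysed here. The labels give no age, do not say what the Saline mice received besides Saline, and do not say whether each sample is a separate animal, so the p-values reflect the variation among these 6 samples alone, and that variation may be technical.

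Sphingosine 1-phosphate is a signalling lipid made inside cells when sphingosine, released from ceramide, is phosphorylated by a sphingosine kinase. The lipid is exported by transporters such as Spns2 and acts on G protein-coupled receptors at the cell surface, or it is degraded irreversibly by the lyase Sgpl1 in the endoplasmic reticulum. In the brain the S1pr1 receptor is known from astrocytes and endothelium and S1pr5 from oligodendrocytes, and receptor modulators of this family are used to treat multiple sclerosis. Mfsd2a is a transporter of brain endothelium that carries lysophosphatidylcholine with docosahexaenoic acid, an omega-3 fatty acid, into the brain and keeps transport by vesicles across the blood-brain barrier low.

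Letters just upstream of the starts of transcription are shown for both kinases, of which Sphk1 passed the authors' threshold and Sphk2 did not, and for Mfsd2a, which shares the side of Sphk1. The RefSeq promoter table (build GRCm38.p6) matched 8 of the 9 genes, S1pr1 being the exception, and the 250 bases before each start were read 5′ to 3′ on the gene's strand. Sphk1 has 5 listed starts on chromosome 11, plus strand, of which the first (chr11:116530850-116531099) and second (chr11:116531587-116531836) are printed. Sphk2 has 2 starts on chromosome 7, minus strand, and the first is printed (chr7:45718003-45718252). Mfsd2a has 1 start on chromosome 4, minus strand (chr4:122961189-122961438). Capitals mark matches, on either strand, to the motifs searched, which are the GC box GGGCGG, the CCAAT box CCAAT, the TATA box TATAAA, the E-box CACGTG and the AP-1 site TGACTCA.
Sphk1 start 1: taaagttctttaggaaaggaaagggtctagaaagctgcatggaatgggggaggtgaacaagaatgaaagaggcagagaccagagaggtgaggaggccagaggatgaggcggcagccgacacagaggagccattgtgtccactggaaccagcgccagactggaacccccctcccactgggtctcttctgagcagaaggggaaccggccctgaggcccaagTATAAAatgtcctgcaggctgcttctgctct
Sphk1 start 2: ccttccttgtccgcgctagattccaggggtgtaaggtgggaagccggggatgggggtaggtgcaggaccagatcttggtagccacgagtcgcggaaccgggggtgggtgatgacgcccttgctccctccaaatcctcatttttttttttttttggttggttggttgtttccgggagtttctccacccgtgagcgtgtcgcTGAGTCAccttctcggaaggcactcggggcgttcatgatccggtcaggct
Sphk2 start 1: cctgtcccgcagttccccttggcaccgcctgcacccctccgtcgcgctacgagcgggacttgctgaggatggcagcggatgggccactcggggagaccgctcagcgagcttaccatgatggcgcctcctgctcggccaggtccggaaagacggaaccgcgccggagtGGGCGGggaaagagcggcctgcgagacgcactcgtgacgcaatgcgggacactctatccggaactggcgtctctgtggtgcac
Mfsd2a start 1: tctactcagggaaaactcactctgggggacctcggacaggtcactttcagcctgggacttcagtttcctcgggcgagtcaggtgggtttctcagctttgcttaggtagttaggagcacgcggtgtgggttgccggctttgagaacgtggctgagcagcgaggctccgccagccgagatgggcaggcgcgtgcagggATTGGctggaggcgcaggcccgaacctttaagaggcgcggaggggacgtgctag

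The first start of Sphk1 held a TATA box match, starts 2 and 3 held the same AP-1 match in overlapping windows, and starts 4 and 5, which also overlap, held a CCAAT box and an E-box match. Among all 32851 promoter windows of this length, 12.4% held the TATA box letters, 4.46% the AP-1 letters, 6.02% the E-box letters, 33.8% the CCAAT letters and 32.7% the GC box letters. None of the 5 Sphk1 windows held a GC box match, while the Sphk2 windows held 1 and 2. The Mfsd2a window held 1 CCAAT match, read on the other strand as ATTGG. Sphk1 and Mfsd2a thus had only the CCAAT letters in common, a match that Spns2 and the second start of Sphk2 also had. Of the receptors, S1pr3 had 1 GC box match and S1pr5 had 2, and S1pr2 had none of the 5 motifs, while Sgpl1 had 3 GC box matches. The GC content was 55.6% and 57.6% at the first 2 Sphk1 starts, 67.6% at the first Sphk2 start and 61.6% at Mfsd2a, against a median of 52.4% over all windows. These matches describe the letters, and binding of a factor was not measured.

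The deposited values are a mean normalized read count over the 6 libraries, a log2 fold change with its error, a p-value and an adjusted p-value per gene. Whether Saline or Visudyne is the numerator of the fold change is not stated in the files, so the groups are called the positive side (higher where the fold change is positive) and the negative side. A positive value would be higher in Visudyne if the groups had been ordered alphabetically, which is the default of the tool but is not stated. In the authors' deposited table the mean counts sum to 2.50117e+07 and 61 of the 18603 tested genes had an adjusted p under 0.05, which is 0.328% of them, with 34 (0.183%) positive and 27 (0.145%) negative. Library size factors, worked out from the smallest mean counts, ranged from 0.584 to 1.517, a 2.60-fold range in depth, and the shallowest library (0.584) lay on the positive and the next (0.754) on the negative side.

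Of the 9 genes, Sphk1 and Mfsd2a passed the authors' adjusted p of 0.05, both on the positive side, and none passed on the negative side. Both calls ended when z was divided by its SD of 1.088 over all tested genes, with adjusted p of 0.0965 for Sphk1 and 0.108 for Mfsd2a. At an unadjusted p under 0.05 these 2 and S1pr3, on the negative side, were counted, beside 6.81% of all tested genes (3.92% positive and 2.89% negative). The genes were picked with this result known, so the count of 2 of 9 beside the 0.328% of all tested genes supports nothing. In the authors' deposited table the fold changes of the 7 genes short of the threshold are pulled almost to 0. The values named unshrunken below were back-calculated from the deposited error and p-value with an assumed prior, and levels of the sides, where libraries were not solved, follow from the mean and this value. The unshrunken log2 fold changes of the 9 genes ran from -0.47 to 1.46, 5 positive and 4 negative, with a median of 0.02, and the median over all tested genes was 0.00.

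**Figure D1:**
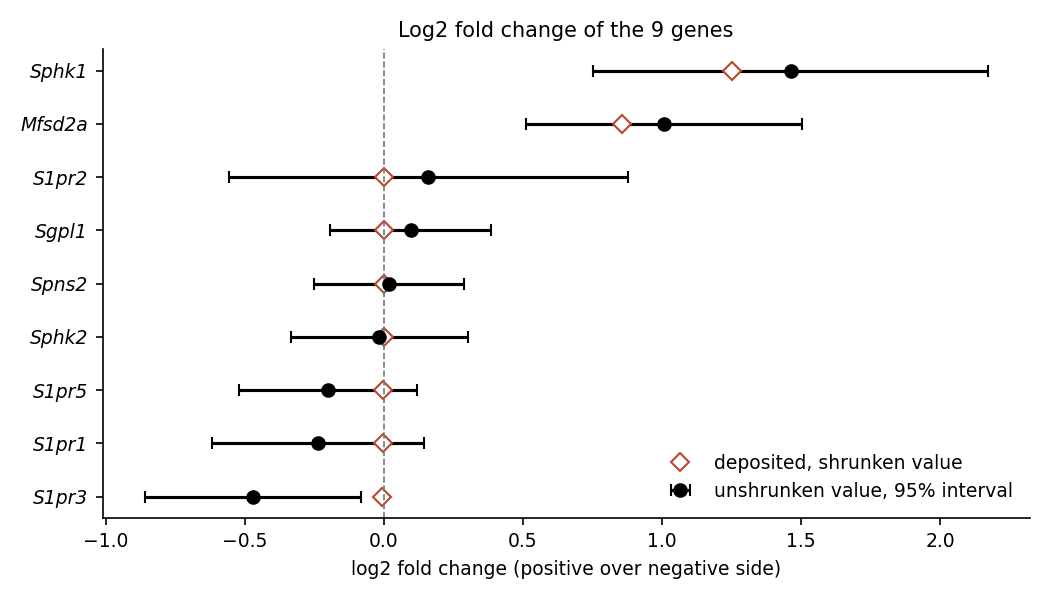
Log2 fold change (horizontal axis, positive over negative side) of the 9 genes, as unshrunken values with 95% intervals (black points and bars) and as the authors' deposited, shrunken values (open diamonds). The intervals of Sphk1 (0.75 to 2.17), Mfsd2a (0.51 to 1.50) and S1pr3 (-0.86 to -0.08) lie off 0, and the deposited values of the other 6 genes and of S1pr3 lie at 0 on this scale.

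The level of the 9 genes differed more than their fold changes. Levels were compared as the authors' mean normalized count divided by the length of the longest annotated transcript in kilobases. The S1pr1 receptor gene came first with 870 normalized counts per kilobase, above 90.0% of the tested genes. The exporter gene Spns2 followed with 856, and Mfsd2a with 455. The receptor gene S1pr5 had 223 normalized counts per kilobase, the kinase gene Sphk2 had 221 and the lyase gene Sgpl1 had 198. The receptor genes S1pr3, with 63.4, and S1pr2, with 9.14, and the kinase gene Sphk1, with 14.5, were lowest, and Sphk1 lay above only 19.1% of the tested genes. Per kilobase, the level of Sphk2 was thus more than that of Sphk1 on either side of the comparison. The deposited mean carries no spread over libraries, so the order of close neighbours is uncertain: S1pr1 and Spns2 lay 1.02-fold apart, S1pr5 and Sphk2 1.01-fold and Sphk2 and Sgpl1 1.12-fold. Per kilobase of coding sequence, Sgpl1 (507) moved above S1pr5 (465) and Sphk2 (424), and S1pr2 (55.4) above Sphk1 (50.6), and the other places stayed the same.

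**Figure D2:**
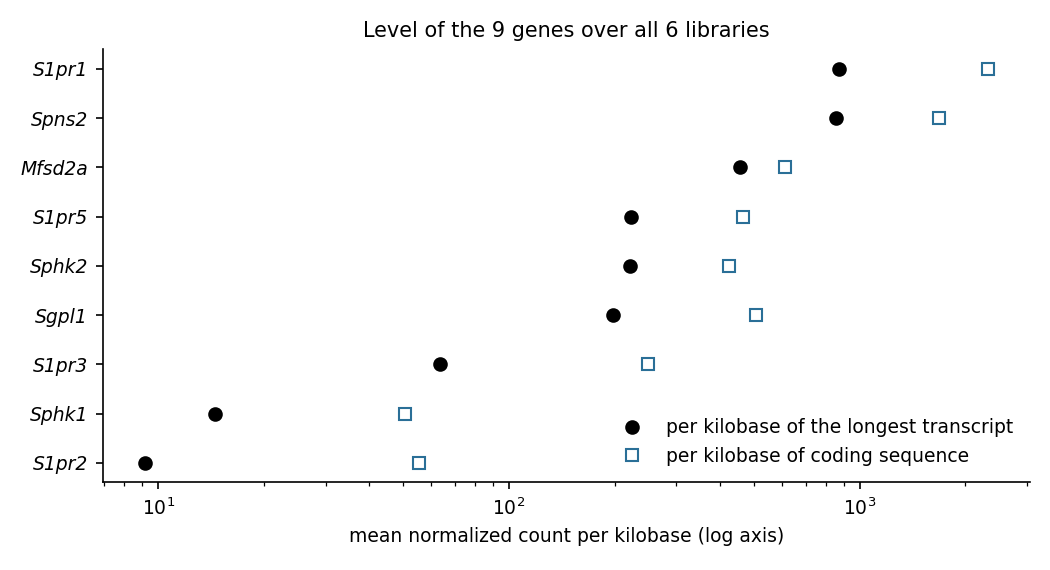
Mean normalized count per kilobase over all 6 libraries (horizontal log axis) for the 9 genes, per kilobase of the longest transcript (black points) and of the coding sequence (open squares). S1pr1 and Spns2 lie highest at 870 and 856 per kilobase of transcript, and Sphk1 and S1pr2 lowest at 14.5 and 9.14.

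For 4 of the 9 genes the read counts of single libraries could be worked out. Each deposited mean is a sum of whole reads, each weighted by its library's depth, and the value of 1 read in each of the 6 libraries can be read from the genes with the lowest means. Libraries were put on the positive or negative side by the sign of the authors' fold change for genes with reads in a single library, and they cannot be tied to a sample name or a treatment. The mean of Sphk1 had 1 solution. From a search with a much wider tolerance, the number of chance solutions to be awaited for Sphk1 was 0.16. The mean of S1pr2 had 2 solutions. For S1pr3 and S1pr5, with means above 100, only read sets near the side levels from the deposited fold change were searched. This search left 3 and 93 sets. For S1pr2 and S1pr3 the 1 set near the authors' fold change and error was taken. For S1pr5 12 sets lay near them, and the most likely of these was taken. The values of these 3 receptors per library are thus not independent of the deposited fold change. The means of the other 5 genes, Sphk2, S1pr1, Sgpl1, Spns2 and Mfsd2a, are too large to be solved in this way.

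Sphk1 encodes the kinase of the pair that growth factors and cytokines induce, and the authors' deposited table gives it a mean of 58.9 normalized counts. Its 3 libraries on the positive side had 92, 122 and 38 reads, or 76.9, 115.6 and 65.0 normalized counts. Its 3 libraries on the negative side had 36, 41 and 29 reads, or 23.7, 33.5 and 38.5 normalized counts. All libraries of the positive side lay above all of the negative side, with means of 85.8 ± 26.5 and 31.9 ± 7.50 normalized counts (SD, n = 3 each). Among 178 genes with mean counts from 20 to 50, sampled over the whole table and solved in the same way, 26 (14.6%) had sides that did not overlap. For Sphk1 the authors' deposited table gives a log2 fold change of 1.25 ± 0.396 (deposited error, adjusted p = 0.0252, DESeq2), which puts it at place 38 in the order of p over all tested genes. The unshrunken value was 1.46 ± 0.36, and a fit to the solved reads gave 1.46 as well. The spread in that fit was set to meet the deposited p-value, so its error of 0.36 is not a separate check. Leaving out each library in turn, the log2 ratio of the side means of Sphk1 lay between 1.15 and 1.59.

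Sphk2 encodes the other kinase, which is known from the nucleus and mitochondria. The authors' deposited table gives Sphk2 a mean of 784 normalized counts, a log2 fold change of -0.00 and adjusted p = 0.998. Its unshrunken log2 fold change was -0.02 ± 0.16 with a 95% interval from -0.34 to 0.30, or 780 normalized counts on the positive side and 789 on the other. The interval of Sphk2 does not meet that of Sphk1, 0.75 to 2.17, but the difference between the kinases was not tested, since Sphk1 was picked by this comparison.

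**Figure D3:**
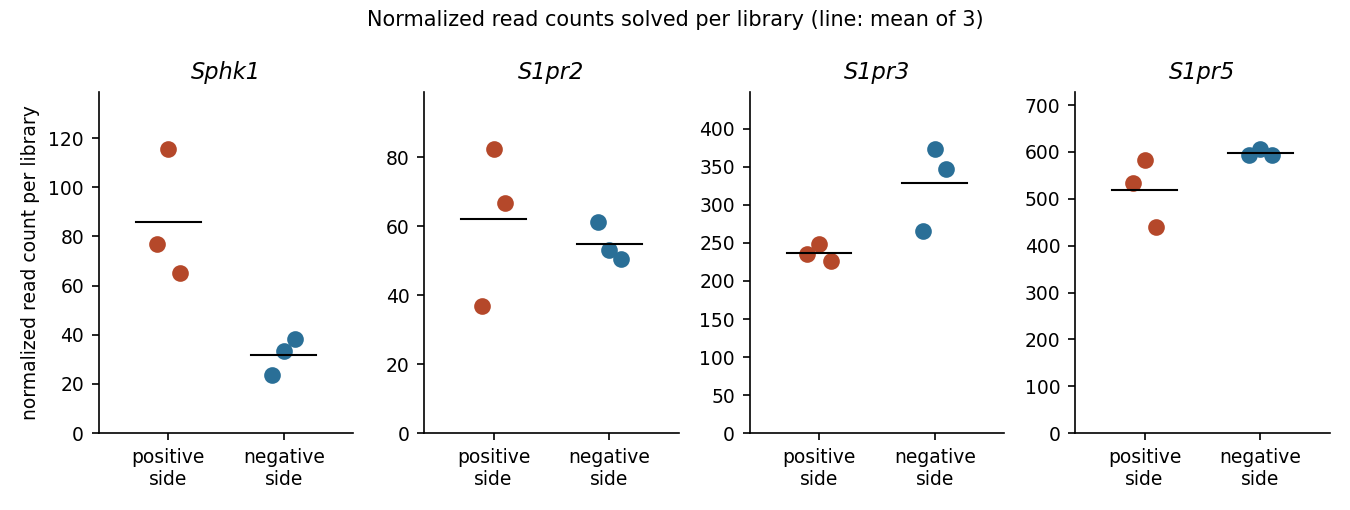
Normalized read counts per library (vertical axis, from 0) of Sphk1, S1pr2, S1pr3 and S1pr5 for the 3 libraries on each side of the authors' fold change; lines mark the mean of 3. Sphk1 lies higher on the positive side (65.0 to 115.6 against 23.7 to 38.5), S1pr3 and S1pr5 lie higher on the negative side, and S1pr2 overlaps.

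No receptor passed the adjusted threshold, and of the 4 receptors 3 had a negative and 1 a positive fold change. S1pr3 couples to several G protein classes and is known from vessels and reactive astrocytes. Its libraries on the positive side had 236, 248 and 226 normalized counts (282, 262 and 132 reads), and those on the negative side 266, 374 and 348 (404, 457 and 262 reads). The sides did not overlap, with means of 237 ± 11.2 and 329 ± 56.0 normalized counts (SD, n = 3 each), although the lowest library of the negative side lay near the highest of the positive side. Sides that did not overlap were also seen in 14.6% of the sampled genes with mean counts from 20 to 50, a range under that of S1pr3. The unshrunken log2 fold change of S1pr3 was -0.47 ± 0.20, and the log2 ratio of the side means stayed between -0.61 and -0.38 without each library in turn. Its unadjusted p in the authors' deposited table is 0.0176, and its adjusted p is 0.519.

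S1pr5 is the receptor of the oligodendrocyte lineage and of natural killer cells. Its libraries on the positive side had 533, 583 and 440 normalized counts (638, 615 and 257 reads), and those on the negative side 595, 607 and 593 (902, 742 and 447 reads). In the chosen solution the 3 libraries of the negative side lay close together and all above the positive side, with means of 598 ± 7.49 and 519 ± 72.5 normalized counts (SD, n = 3 each). The choice by likelihood among 12 solutions favours libraries near their side's mean, so this closeness and gap depend on it. Of the sampled genes with mean counts from 20 to 50, a range under that of S1pr5, 14.6% had sides that did not overlap. The unshrunken log2 fold change was -0.20 ± 0.16, and the adjusted p in the authors' deposited table is 0.924. Without each library in turn the log2 ratio of the side means of S1pr5 ranged from -0.30 to -0.10.

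S1pr2 signals mainly through the G12 and G13 proteins and opposes cell migration. Its libraries on the positive side had 36.8, 82.5 and 66.8 normalized counts (44, 87 and 39 reads), and those on the negative side 61.3, 53.1 and 50.4 (93, 65 and 38 reads). The sides overlapped, with means of 62.0 ± 23.2 and 55.0 ± 5.67 normalized counts (SD, n = 3 each), and the wider spread lay on the positive side, which held both the lowest and the highest library. The unshrunken log2 fold change of S1pr2 was 0.16 ± 0.37 (adjusted p = 0.985 in the authors' deposited table), and without the library of 82.5 normalized counts the log2 ratio of the side means changed sign to -0.09. S1pr1, the most abundant of the 9 genes per kilobase, drives lymphocyte exit from lymph nodes and tightens endothelial junctions. The authors' deposited table gives S1pr1 a mean of 2651 normalized counts and adjusted p = 0.926, and its unshrunken log2 fold change was -0.24 ± 0.19, or 2434 normalized counts on the positive side and 2868 on the negative side. The interval of S1pr1, -0.62 to 0.14, takes in 0 and also the value of S1pr3.

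S1pr4, the receptor of blood and immune cells, belongs to the wider list of receptor signalling and had few reads. Its libraries had 6, 3 and 7 reads on the positive and 15, 10 and 12 on the negative side. In normalized counts these were 5.01, 2.84 and 11.98 against 9.89, 8.18 and 15.9, and the sides overlapped. Its unshrunken log2 fold change was -0.86 ± 0.81 (adjusted p = 0.938 in the authors' deposited table).

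The genes of breakdown and export did not pass the threshold. Sgpl1, whose product cleaves the phosphorylated lipid, had an unshrunken log2 fold change of 0.10 ± 0.15 (interval -0.19 to 0.39, adjusted p = 0.975 in the authors' deposited table), or 893 normalized counts on the positive side and 836 on the negative side. Back-calculated from the deposited value in place of its error, Sgpl1 had 0.26. Spns2, the exporter that supplies the lipid to lymph and endothelium, had 0.02 ± 0.14 (interval -0.25 to 0.29, adjusted p = 0.997 in the authors' deposited table). This corresponds to 2791 normalized counts on the positive side and 2756 on the other, and the interval of Spns2 was the narrowest of the 9.

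For Mfsd2a the authors' deposited table gives a mean of 979 normalized counts and a log2 fold change of 0.86 ± 0.278 (deposited error, adjusted p = 0.0295, DESeq2), at place 45 in the order of p. The unshrunken log2 fold change of Mfsd2a was 1.01 ± 0.25, which corresponds to 1307 normalized counts on the positive side and 651 on the negative side. Values of single libraries were not solved for this gene, so how far its sides overlap is not known. Mfsd2a is a marker of brain endothelium, and the 10 other endothelial markers looked at were divided, 5 positive and 5 negative, with a median unshrunken log2 fold change of -0.03 and summed levels of 5060 normalized counts on the positive side and 4782 on the negative side. Among them Cldn5, of the tight junctions, had -0.20 ± 0.27, Pecam1 had 0.36 ± 0.21 and Cdh5 had 0.15 ± 0.23. The endothelial genes with the smallest p were Slc38a5 (-1.29 ± 0.54) and Flt1 (-0.47 ± 0.24), both negative and short of the adjusted threshold.

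Markers of other cell types moved with the sides of the comparison, and in bulk RNA fewer cells of a type and less RNA per cell cannot be told apart. How much neighbouring tissue each hippocampal sample held is not known either, so a shift need not lie within the hippocampus. Beside the positive values of Sphk1 and Mfsd2a, all 8 meningeal fibroblast markers were positive, with summed levels of 2265 normalized counts on the positive side and 1027 on the negative side, and 4 of them passed the authors' adjusted threshold, among them Fmod (2.05 ± 0.39, unshrunken log2 fold change) and Slc22a6 (1.71 ± 0.43). All 7 choroid plexus markers (54896 and 15947 summed normalized counts, none past the threshold) and all 9 cortical neuron markers (7672 and 5166, 3 past the threshold) were positive as well, with Ccn2 at 1.55 ± 0.28 and Cplx3 at 1.43 ± 0.26 on that scale. Of the choroid plexus sums, Ttr alone made 51774.2 and 14396.5, with 1.85 ± 1.30. No choroid plexus marker had an unadjusted p under 0.05. Of 8 hippocampal neuron markers 2 were positive and 6 negative (22710 and 24998), and all 8 were detected. Beside the negative values of S1pr1, S1pr3 and S1pr5, all 10 oligodendrocyte markers (209086 on the positive side and 247038 on the negative side, median -0.49, 1 past the threshold) and all 8 microglia markers (6068 and 8251, median -0.40, 1 past the threshold) were negative. The genes past the threshold were Ermn of oligodendrocytes (-0.99 ± 0.21) and Fcrls of microglia (-1.38 ± 0.27). Astrocyte markers were divided, 4 positive and 4 negative (119986 and 120661), and Aqp4 with -0.53 ± 0.23 and Gfap with -0.48 ± 0.24 had the smallest p. Oligodendrocyte precursor markers (5 positive and 1 negative of 6), pericyte and smooth muscle markers (5 and 3 of 8) and red blood cell markers (1 and 5 of 6, 4257 and 6220 summed normalized counts) had no gene past the threshold, and of 7 lymphocyte markers 2 had enough reads to be tested, 1 on each side. None of these lists held a marker at 0. Cspg4 is counted as positive in both the precursor and the pericyte list. The positive red blood cell marker was Mfsd2b, which is also counted among the removal, export and carrier genes below. The marker lists were drawn up with earlier results of these data known. Their counts past the threshold, beside 0.328% of all tested genes, are therefore given as a description. The part of these cell types in the values of the 9 genes was not tested.

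No gene of the lists drawn up around the 9 genes passed the adjusted threshold. The list of enzymes that supply sphingosine 1-phosphate from sphingolipids had 26 tested genes, 14 positive and 12 negative, with a median unshrunken log2 fold change of 0.00. At an unadjusted p under 0.05 there was 1 of the 26, beside 6.81% of all tested genes. It was Acer2, an alkaline ceramidase that releases sphingosine from ceramide, with 0.54 ± 0.21, or 233 normalized counts on the positive side and 160 on the negative side (adjusted p = 0.448 in the authors' deposited table). Sgms2, a sphingomyelin synthase, had 0.97 ± 0.53, the related Sgms1 had 0.18 ± 0.15 and the sphingomyelinase Smpd4 had -0.46 ± 0.27. The Sgms2 value rests on a wide spread, since its libraries ran from 34.2 to 175 normalized counts on the positive and from 27.9 to 58.0 on the negative side.

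Removal, export and carrier genes other than the members had 9 tested genes, 7 positive and 2 negative, with a median of 0.13 and none past the adjusted threshold. Abca1, a lipid transporter that loads lipoproteins and can release the phosphorylated lipid, had 0.55 ± 0.24 (adjusted p = 0.577 in the authors' deposited table). It was the 1 gene of the 9 with an unadjusted p under 0.05, beside 6.81% of all tested genes. The phosphatase Sgpp2, which turns the lipid back into sphingosine, had 0.49 ± 0.33, and the surface phosphatases Plpp2 and Plpp1 had -0.38 ± 0.24 and 0.24 ± 0.16. Receptor signalling genes had 16 tested genes, 7 positive and 9 negative, with a median of -0.05 and none past the adjusted threshold. Gna12, the G protein subunit of the S1pr2 branch, had -0.40 ± 0.15 (unadjusted p = 0.00757 and adjusted p = 0.370 in the authors' deposited table), while the related Gna13 had 0.34 ± 0.28 and the arrestin gene Arrb1 0.36 ± 0.23.

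Lysophosphatidic acid is the sister lipid, made by the secreted enzyme autotaxin (Enpp2) and sensed by G protein-coupled receptors as well. Of its 7 genes, 5 were positive and 2 negative, with a median of 0.13 and none past the adjusted threshold. Lpar1 had -0.63 ± 0.22, or 694 normalized counts on the positive side and 1077 on the negative side (unadjusted p = 0.00406 and adjusted p = 0.274 in the authors' deposited table), the opposite sign to Enpp2 with 1.14 ± 0.94. Enpp2 is also abundant in choroid plexus, whose markers were all positive, and their part in its value was not tested. Lpar5 had 1.30 ± 0.81 from 5.85 to 27.5 normalized counts per library on the positive and 5.27 to 6.63 on the negative side, so its sides overlapped. Lpar2 had 0.31 ± 0.43, with 24.2 to 31.3 normalized counts per library on the positive and 22.6 to 23.7 on the negative side, which did not overlap. Among the 178 sampled genes with mean counts from 20 to 50, 14.6% had sides that did not overlap.

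The omega-3 and lysolipid partners of Mfsd2a had 4 positive and 5 negative of 9 genes, from -0.54 to 0.90 with a median of -0.01, and none past the adjusted threshold. The fatty acid binding protein gene Fabp7, of radial glia and astrocytes, had -0.54 ± 0.19 (unadjusted p = 0.00499 and adjusted p = 0.295 in the authors' deposited table), the opposite sign to Mfsd2a. Fabp5, which carries docosahexaenoic acid in brain endothelium, had -0.17 ± 0.16, Cav1, of the vesicles that Mfsd2a holds down, had -0.09 ± 0.21, and Spns3, a relative of Spns2, had 0.90 ± 0.62. Over these 5 lists no gene passed the adjusted threshold, beside 0.328% of all tested genes, and the lists were drawn up with earlier results of these data known. Each of the 5 lists had 1 gene at an unadjusted p under 0.05, beside 6.81% of all tested genes, so these genes are given as a description.

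**Figure D4:**
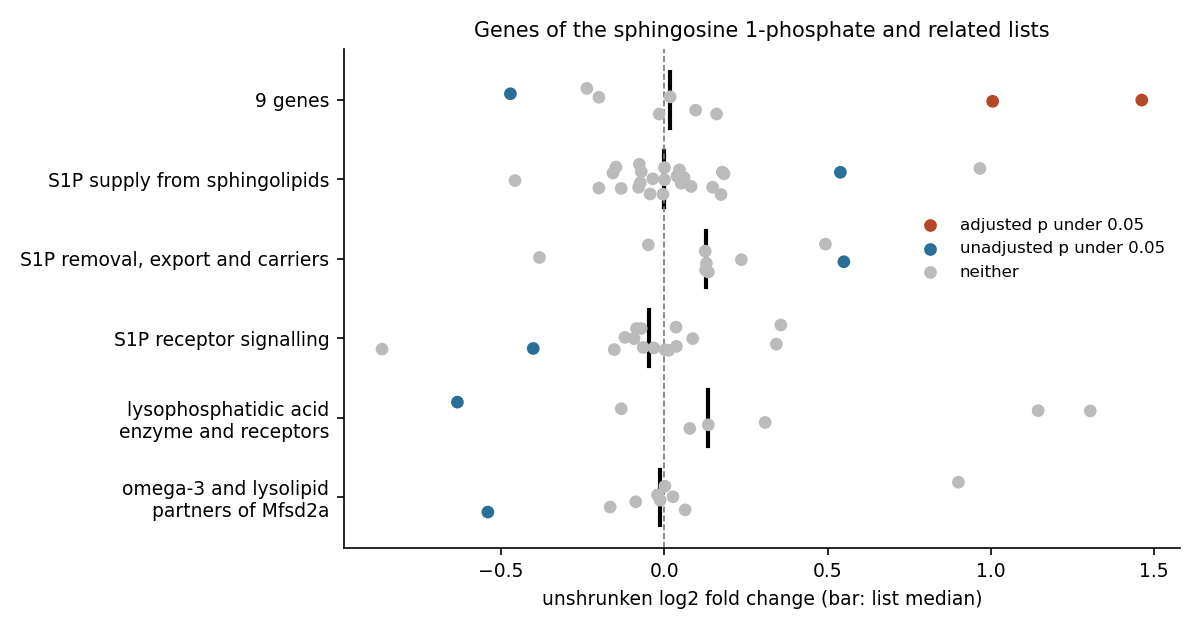
Unshrunken log2 fold change (horizontal axis, positive over negative side) of each tested gene of the 9 described and of the 5 surrounding lists, coloured by the authors' adjusted or unadjusted p; vertical bars are list medians. Sphk1 (1.46) and Mfsd2a (1.01) are the points past the adjusted threshold, and the list medians lie between -0.05 and 0.13.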

How the data were processed

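Stranded mRNA libraries (TruSeq) of the 6 samples were sequenced on a NovaSeq 6000 as 150 bp paired-end reads, and passed through fastp 0.20.0 for trimming, HISAT2 2.1.0 for alignment and FeatureCounts 2.0.1 for counting per gene, per the labels' protocols. The submitters' processing notes name DESeq2 1.28.0. The sources used here give no genome build, annotation or strand setting, and overlapping genes or close copies may share reads. The treatment label of a sample set its group.

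The deposited workbook has 2 sheets with identical values and no columns of single libraries. Its mean column is a signal, counts divided by size factors and averaged by the authors over the libraries. The deposited fold change and error are log2 values that, judged from their spread, the authors had shrunk toward 0. The p-value and its adjusted form were deposited by the authors too. The count test foreseen for values per sample was therefore replaced by the authors' adjusted p at 0.05, and the adjusted p is blank under a mean of 5.67.

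Unshrunken values were computed from the deposited error, p-value and a Cauchy prior of scale 0.0357, which is inferred from the genes with the fewest reads. On data simulated with the same prior and formula, 400 of 400 came within 1%, which checks the arithmetic and not the assumed prior. Reads per library were solved from the mean and 6 one-read steps for means up to 100. Above that and up to 600, the search was also confined to side levels near those from the deposited fold change. Of 200 sampled genes 178 had 1 solution, 17 several and 5 none. For 68 of the sampled genes with z above 1 in size, the back-calculated value was 1.01 times that from the solved reads (median), and 77.9% came within 2%. The sampled genes have mean counts from 20 to 50, under those of all 9 genes described. Genes with z under 1 in size, such as Sphk2, S1pr2, Sgpl1 and Spns2, were not covered by this comparison. For S1pr3 the chosen solution missed the deposited fold change by 0.193% and the next one by 5.40%. For S1pr5, 12 of 93 solutions lay near the deposited values, and the chosen one held 99.99% of their likelihood. Intervals are 95% intervals, the unshrunken value ± 1.96 standard errors.

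Gene lengths came from the GENCODE annotation of GRCm38 and promoters from RefSeq, where the 50 bases after the start were left out. The 55471 gene IDs matched a table of mouse gene names in 55144 cases. All 9 genes are named. Of each list around them, the genes named are those past the adjusted p and up to 4 with the smallest p. Of each marker list at most 2 with the smallest p are named, and Cldn5, Pecam1 and Cdh5 besides, chosen after their values were seen. Cspg4 and Mfsd2b are named because each is shared by 2 lists. The members and lists were chosen with earlier results of these data known. The software was Python 3.11.15 with pandas 2.3.3, numpy 2.4.6, matplotlib 3.10.9 and scipy 1.17.1.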

Additional observations from a re-analysis of the deposited data

How the results depend on the processing

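Among all tested genes, 61 passed the authors' adjusted p of 0.05, 116 passed 0.1, 23 passed with a deposited change of at least 2-fold too, and 19 passed with z divided by its SD. The count was 45 when adjusted over every gene with a p-value and 65 over genes whose mean reaches 1 CPM. Of the 9 genes, 2 passed at 0.05, at 0.1 and under the latter 2 settings, 1 (Sphk1) at 2-fold and 0 after division of z by its SD. Over these settings the adjusted p of Sphk1 ranged from 0.0215 to 0.0965 and that of Mfsd2a from 0.0252 to 0.108. When the unshrunken value was taken from the deposited value in place of its error, an alternative chosen after seeing the data, Sgpl1 had 0.26 in place of 0.10. Where the deposited value lies near 0, both versions rest on the assumed prior: multiplying its scale by 2 brought S1pr3 to -0.01 in the version from the deposited value, and dividing it by 2 to -0.13. Levels per coding kilobase were higher for all 9 genes because their coding sequences are shorter than the transcripts. Only a change of order could therefore be informative there. Leaving out each library, the log2 ratio of the solved side means was 1.15 to 1.59 for Sphk1, -0.61 to -0.38 for S1pr3, -0.30 to -0.10 for S1pr5 and -0.09 to 0.44 for S1pr2, which reversed to -0.086 without the second library of the positive side. Apart from the rise per coding kilobase, the causes of these changes were not tested. Other count models need values per named sample and were not run. No paired analysis was possible because the labels give no shared replicate numbers and no values per named sample are in the columns used.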
